A study of Caenorhabditis elegans with 24 samples.

Results

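The genes described here are the 86 Caenorhabditis elegans genes whose symbol in the deposited small RNA table begins with math- or bath- and a number, out of 20167 genes in that table. They comprise 49 math genes, which encode proteins with a MATH domain, and 37 bath genes, which encode proteins with both a BTB and a MATH domain. Membership was set by name and not by a measured value, though with earlier results of these data known. Each gene was counted once through its most abundant transcript. The small RNAs came from whole young adults of 2 strains, the hrde-1(tm1200) mutant and the wild type (WT, strain N2), with no further allele or treatment in either. All libraries are from 1 repeat of the study's experiment, in which each strain was followed over 12 generations: 3 at 15 °C (15C-G1 to 15C-G3, phase I), 6 at 23 °C (23C-G1 to 23C-G3, phase II, and 23C-G4 to 23C-G6, phase III) and 3 back at 15 °C (p15C-G1 to p15C-G3, phase IV). Young adults were collected 114 to 120 h (15 °C) or 50 to 55 h (23 °C) after starved L1 larvae had been given food, and each generation gave 1 library, 12 per strain. The 3 libraries of a strain in a phase are therefore successive generations of 1 lineage, and the p-values below measure the spread between generations only.

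A MATH domain binds substrates, and a BTB domain binds the ubiquitin ligase scaffold CUL-3, so BATH proteins act as adaptors that bring proteins to CUL-3 for ubiquitination. The best known of them in C. elegans is MEL-26, which directs the microtubule-severing protein MEI-1 to CUL-3 in the early embryo and whose name lies outside the pattern used here. Both families have expanded in nematodes by local duplication, as the F-box genes have. The RNAs counted are antisense siRNAs, most of which in worms are made by RNA-dependent RNA polymerases on the target transcript and are bound by Argonaute proteins. HRDE-1 is the Argonaute that carries such siRNAs into germline nuclei, where they guide chromatin silencing that can be inherited. A siRNA level can thus reflect both the making of siRNAs on a transcript and their binding by Argonautes, which cannot be told apart here. It is not a measure of the mRNA level.

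Levels are given in RPKM, reads scaled to exon length and to the library's total, so that genes of different length can be compared. The steps between low values put the depth at 299400 (WT 23C-G4) to 1042400 (WT p15C-G2) antisense reads per library, and every library has a floor at the value of about 1 read, 0.959 to 3.34 RPKM for a gene of 1 kb. A deeper library has a lower floor. In phase I the hrde-1 libraries had 509600 to 771100 reads and the WT libraries 369500 to 502500, and a mean of 5 reads is used below to mark genes clear of the floor. The gene deleted in the mutant had siRNAs at 119.4 to 164.0 RPKM in the 12 hrde-1 libraries against 249.7 to 320.6 RPKM in the 12 WT libraries, with no overlap. The 12 germline marker genes carried siRNAs at a sum of 1374 to 1977 RPKM in hrde-1 and 1188 to 1702 RPKM in WT, and the 9 oocyte markers at 613 to 829 RPKM in hrde-1 and 428 to 718 RPKM in WT, whereas the 6 intestine markers summed to between 8.9 and 21.2 RPKM in any library. The oocyte sum was higher in hrde-1 without overlap in each phase, and the germline sum in phase II. The 6 neuron markers also summed higher in hrde-1 without overlap in phase I (144.5 to 150.5 RPKM in hrde-1 against 76.7 to 116 RPKM in WT), phase III (165.4 to 232.6 against 103.5 to 146 RPKM) and phase IV (252.8 to 291.1 against 99.6 to 110.3 RPKM). The 5 muscle markers were lower in hrde-1 in phase I (3.4 to 3.9 against 12.7 to 17.5 RPKM) and phase IV (3.2 to 3.6 against 4.7 to 18.8 RPKM). These sums are low, with 3 of the 5 genes averaging 1 RPKM or more, and the part of the floor was not tested. In phase IV the intestine markers (9.2 to 12.7 against 16.2 to 21.2 RPKM) and the 4 epidermis markers (12.2 to 15.4 against 17.8 to 20.9 RPKM) were lower too. The 9 sperm markers overlapped between genotypes in each phase (83 to 331.1 RPKM in hrde-1 and 108.2 to 144.3 RPKM in WT in phase I). These are siRNA levels, and the part of any of these sums in the results below was not tested. In whole worms, a change in the number of germ cells and a change in siRNA per cell cannot be told apart.

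The BATH genes were abundant siRNA targets and most MATH genes were not. The median of the mean level over all 24 libraries was 42.2 RPKM for the BATH genes and 3.56 RPKM for the MATH genes, against 6.26 RPKM for all genes. A mean of at least 10 RPKM was reached by 29 of 37 BATH genes (78.4%) and by 9 of 49 MATH genes (18.4%), against 41.6% of all genes. A mean of at least 100 RPKM was reached by 13 BATH genes (35.1%) and 3 MATH genes (6.1%), against 7.8% of all genes. A mean of at least 5 reads was reached by 31 BATH and 8 MATH genes, and 21 of the 86 genes were at the floor in 12 or more libraries. For comparison, the 305 F-box A, B and C genes had a median of 5.75 RPKM and the 21 BTB-only genes one of 10.0 RPKM. Single genes ranged from 1.93 to 1775 RPKM among the BATH genes and from 0.88 to 277 RPKM among the MATH genes.

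Most siRNA of the family fell on a few genes. bath-20 averaged 1775 RPKM over the 24 libraries and bath-45 averaged 1729 RPKM, and together they held 43.7% of the summed level of the 86 genes. Next came bath-23 at 554 RPKM, bath-13 at 511 RPKM, bath-24 at 388 RPKM, bath-7 at 300 RPKM, bath-10 at 290 RPKM and bath-31 at 283 RPKM, and these 8 genes held 72.8%. The most abundant MATH genes were math-1 at 277 RPKM and math-31 at 236 RPKM, followed by math-44 at 130 RPKM. bath-23 is annotated as a pseudogene, as are 11 MATH genes, of which math-43 had the highest level at 29.7 RPKM. math-33, the orthologue of the human deubiquitinase USP7 and the MATH gene with the best known biochemical role, stood at 31.9 RPKM.

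**Figure D1:**
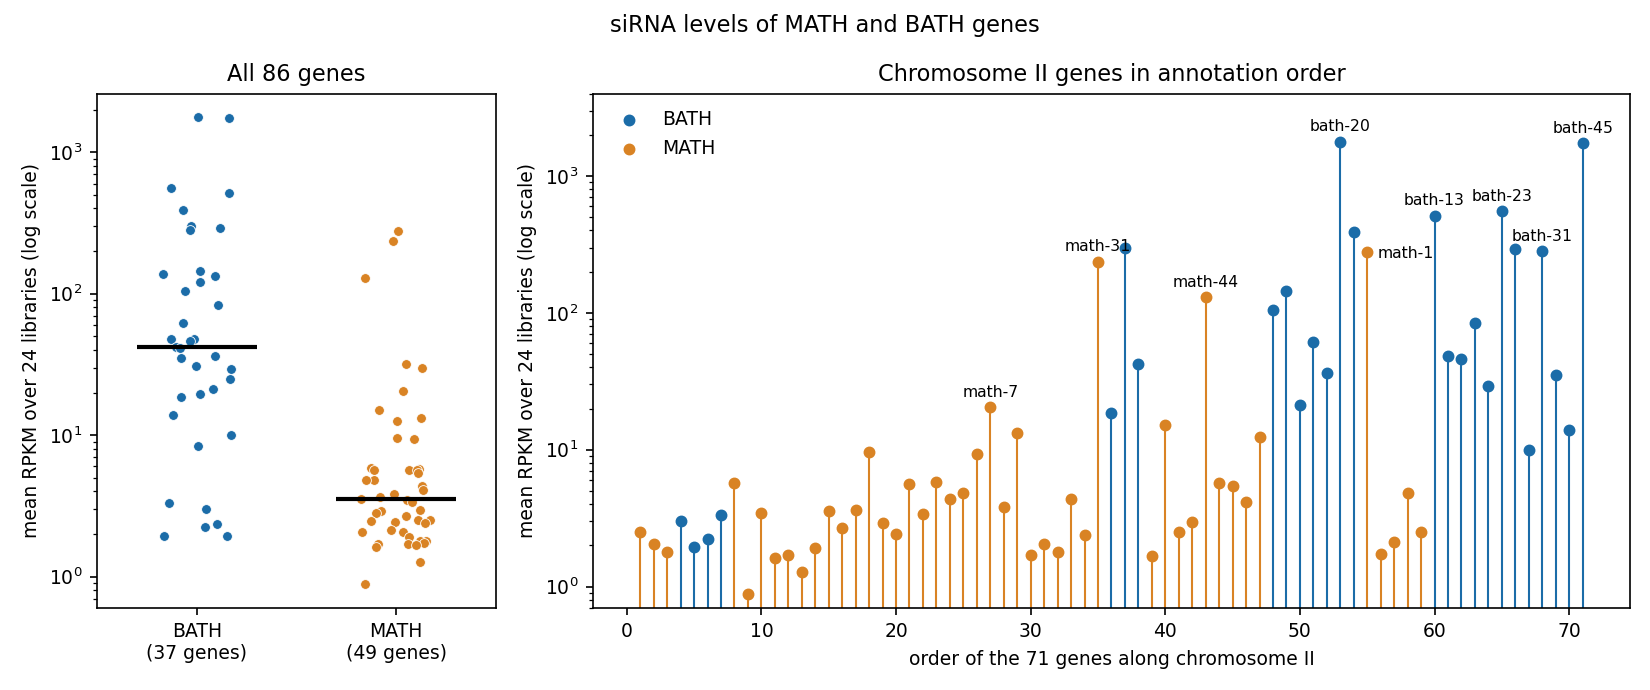
Mean RPKM over 24 libraries on a log scale, for all 86 genes by family (left, each point a gene, black bars the medians of 42.2 RPKM for BATH and 3.56 RPKM for MATH) and for the 71 genes on chromosome II in their order along it (right). Within the long run of low MATH genes the BATH genes stand high, and math-31, math-44 and math-1 are the MATH genes above 100 RPKM.

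The genes lie close together in the genome. By sequence name, 85 of the 86 were found in the WBcel235 annotation (math-36 was not), and 71 of them are on chromosome II, 5 on I, 4 on III, 3 on V and 1 each on IV and X. The files give no coordinates and were made on WS190, so only gene order and distance in WBcel235 are used here. Joining neighbours no more than 100 kb apart gave 1 stretch of 448.5 kb on chromosome II with 52 of the genes, 42 MATH and 10 BATH. In it all 10 BATH genes and 6 of the 42 MATH genes reached 5 reads. A second stretch of 35.1 kb held 7 BATH genes and no MATH gene, and all 7 reached 5 reads. Another stretch, of 95.9 kb, held 4 BATH and 2 MATH genes, and none of these 6 reached 5 reads, so a low level was not limited to MATH genes. The 12 genes of the clone C16C4 are all MATH genes at 2.43 to 20.5 RPKM, whereas bath-20, bath-24 and math-1 of clone B0047, all within 6.4 kb and on 1 strand, stood at 277 to 1775 RPKM.

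The first comparison asked which of these siRNAs depend on HRDE-1, in each phase separately. The summed level of the 86 genes in hrde-1 was 63.0% of that in WT in phase I, 59.6% in phase II, 57.4% in phase III and 65.3% in phase IV. In phase I the sums were 5824 to 6883 RPKM in the 3 hrde-1 libraries against 9688 to 11132 RPKM in the 3 WT libraries, and in phase III they were 5861 to 6155 RPKM against 9748 to 10961 RPKM. Sums of the 2 genotypes did not overlap in any phase. bath-20 and bath-45 alone make up much of these sums, so the counts of genes below say more about the family.

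A gene was called where limma's moderated test on log2(RPKM + 1), fitted over the 19839 genes that averaged 1 RPKM or more, gave at least a 2-fold difference and an adjusted p (Benjamini-Hochberg) no higher than 0.1. Of the 86 genes 85 were tested (math-28 was too low). In phase I, 11 were lower and 2 higher in hrde-1, where 4.1% of all genes were lower and 3.72% higher. In phase II, 9 were lower and none higher (all genes 3.2% and 2.5%), and 8 of the 9 reached 5 reads. In phase III, 11 were lower and 1 higher (3.18% and 2.68%), all of them above 5 reads. In phase IV, 10 were lower and 1 higher (4.34% and 3.65%). Among the 39 genes of at least 5 reads, 23.1%, 20.5%, 30.8% and 20.5% were called in phases I to IV, where 14.6%, 11.4%, 12.0% and 14.1% of all genes of that depth were. The median log2 difference, hrde-1 minus WT, was −0.45 over the 85 genes in phase I (all genes −0.19), −0.04 in phase II (0.14), 0.01 in phase III (0.11) and −0.25 in phase IV (0.07). Over the 39 genes of at least 5 reads it was −0.30, −0.13, −0.28 and −0.25 in phases I to IV, against 0.12, 0.07, 0.04 and −0.01 over all genes of that depth.

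Counting genes whose 3 hrde-1 libraries all lay on 1 side of the 3 WT libraries gave 42 below and 5 above in phase I, where 36.1% and 9.76% of all genes were so placed. In phase II it gave 18 below and 1 above (7.46% and 8.52%), in phase III 16 below and 4 above (8.58% and 8.08%), and in phase IV 28 below and 3 above (12.9% and 10.6%). The large count in phase I went with the deeper hrde-1 libraries of that phase and with a high share over all genes, and the part of depth in it was not tested.

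**Figure D2:**
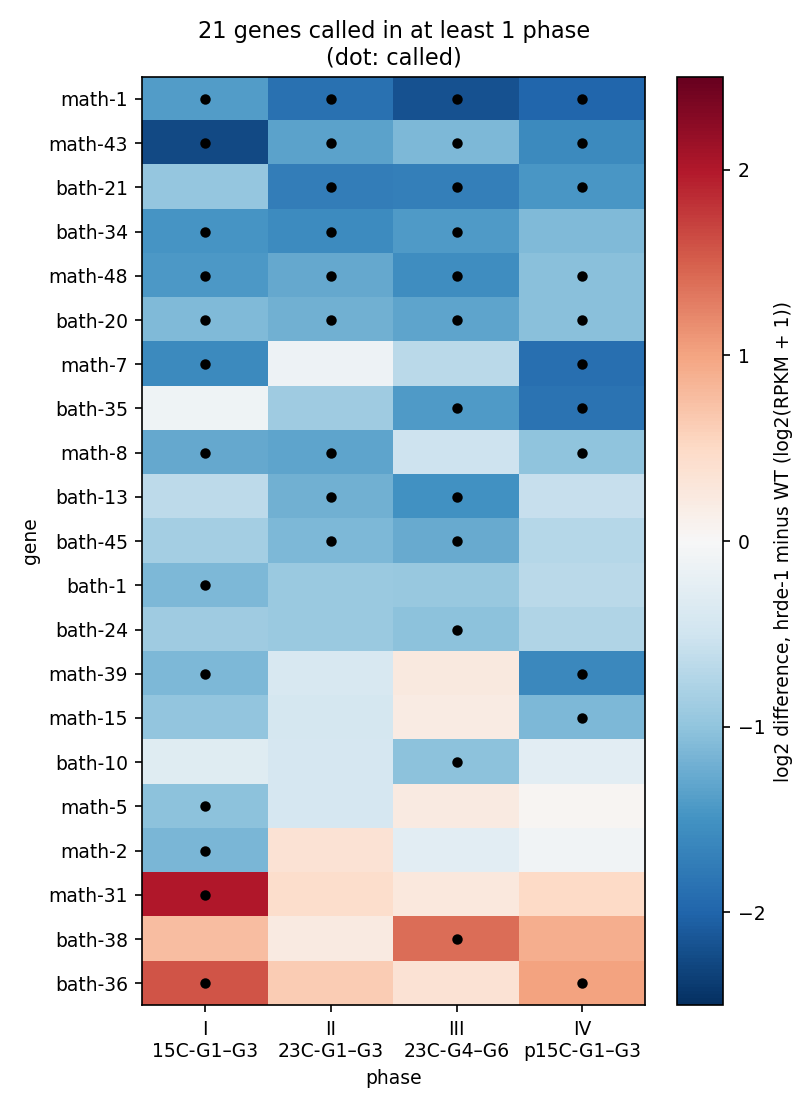
Difference in log2(RPKM + 1), hrde-1 minus WT, in phases I to IV (columns) for the 21 genes called in at least 1 phase (rows, ordered by their mean difference). Blue is lower in hrde-1, red is higher, and a dot marks a call. 18 genes have dots in blue and 3 in red (math-31, bath-36 and bath-38), and math-1, math-43, math-48 and bath-20 have dots in all 4 phases.

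Over the 4 phases, 18 of the 85 genes were lower in hrde-1 in at least 1 phase (7.23% of all genes) and 3 were higher in at least 1 (6.31%), and no gene was called in both directions. The 18 were 9 BATH and 9 MATH genes. 4 genes, bath-20, math-1, math-43 and math-48, were lower in all 4 phases (1.31% of all genes), and with bath-34, bath-21 and math-8 there were 7 that were lower in at least 3 (2.25%). 10 genes had all 3 hrde-1 libraries below all 3 WT libraries in every phase (2.66% of all genes): bath-1, bath-13, bath-15, bath-20, bath-21, bath-24, bath-34, bath-45, math-1 and math-48. Of these bath-15 was never called, since its differences of −0.57, −0.95, −0.69 and −0.53 stayed under 2-fold.

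Clone B0047 holds 3 of these genes side by side. bath-20 had 1251, 1193 and 1088 RPKM in hrde-1 in phase I, against 2712, 2465 and 2374 RPKM in WT. Over all 12 generations it ranged from 941 to 1251 RPKM in hrde-1 (median 1071) and from 1916 to 2947 RPKM in WT (median 2421). Each hrde-1 generation was thus lower than each WT generation, whatever the temperature. The log2 difference was −1.10 ± 0.09 (SE) in phase I, −1.19 in phase II, −1.32 in phase III and −1.05 in phase IV (limma, the largest adjusted p of the 4 being 8.2e-09).

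math-1, at the other end of the same clone, had larger differences. It had 113.3, 88.9 and 134.4 RPKM in hrde-1 in phase I, against 287.0, 283.3 and 304.9 RPKM in WT. In phase III it had 122.6, 139.3 and 99.6 RPKM in hrde-1, against 510.0, 657.0 and 484.7 RPKM in WT. The hrde-1 values stayed between 78.8 and 176.2 RPKM in all 12 generations, while the WT values at 23 °C all exceeded the WT values of phase I. The log2 difference was −1.39 ± 0.18 in phase I, −1.87 in phase II, −2.18 in phase III and −1.99 in phase IV (limma adjusted p = 5.07e-06, 5.83e-08, 4.09e-09 and 1.71e-08). Within WT, the 23 °C value was 0.95 higher on the log2 scale, just under the 2-fold limit. bath-24, which lies between the other two, had 304.7, 281.8 and 272.6 RPKM in hrde-1 in phase III, against 602.4, 568.2 and 569.1 RPKM in WT. Its difference of −1.02 (adjusted p = 1.3e-06) was the sole call among its 4 phases, with values of −0.90, −0.92 and −0.76 in phases I, II and IV, and it read −0.99 without WT 23C-G4 and −0.98 without hrde-1 23C-G6, just under the limit.

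bath-45, bath-13 and bath-21 were called lower in both phases at 23 °C. bath-45, far from the other genes on chromosome II, had 1010, 1028 and 1061 RPKM in hrde-1 in phase III, against 2776, 2407 and 2268 RPKM in WT. Its difference was −0.85 in phase I, −1.12 in phase II, −1.26 in phase III and −0.71 in phase IV, called in phases II and III (limma adjusted p = 1.56e-08 and 2.01e-09). bath-13 had 475.1, 440.3 and 432.0 RPKM in hrde-1 in phase I, against 719.1, 722.6 and 677.3 RPKM in WT. The phase III values were 192.7, 231.7 and 272.6 RPKM in hrde-1, against 685.6, 737.3 and 571.8 RPKM in WT. bath-13 ranged from 561.4 to 812.8 RPKM over all WT generations, and the phase III libraries were the lowest of the hrde-1 ones, which stood at 358.4 to 406.0 RPKM at p15C. Its difference was −0.65, −1.21, −1.52 and −0.58 in phases I to IV, called in II and III (adjusted p = 1.09e-07 and 2.36e-09).

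bath-21 of clone F59H6 ranged from 35.6 to 81.2 RPKM in hrde-1 (median 53.7) and from 125.1 to 211.7 RPKM in WT (median 144.4). Its difference of −0.96 in phase I missed the limit, and it was called at −1.73, −1.70 and −1.45 in phases II to IV (limma adjusted p = 2.07e-06, 2.42e-06 and 2.22e-05). Its neighbour bath-1 had 84.4, 80.5 and 86.6 RPKM in hrde-1 in phase I, against 210.9, 161.8 and 182.8 RPKM in WT, a difference of −1.13 (adjusted p = 2.9e-06). In the later phases bath-1 differed by −0.93, −0.95 and −0.67 and was not called. Whether the size of a difference changed between phases was not tested for any of these genes.

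**Figure D3:**
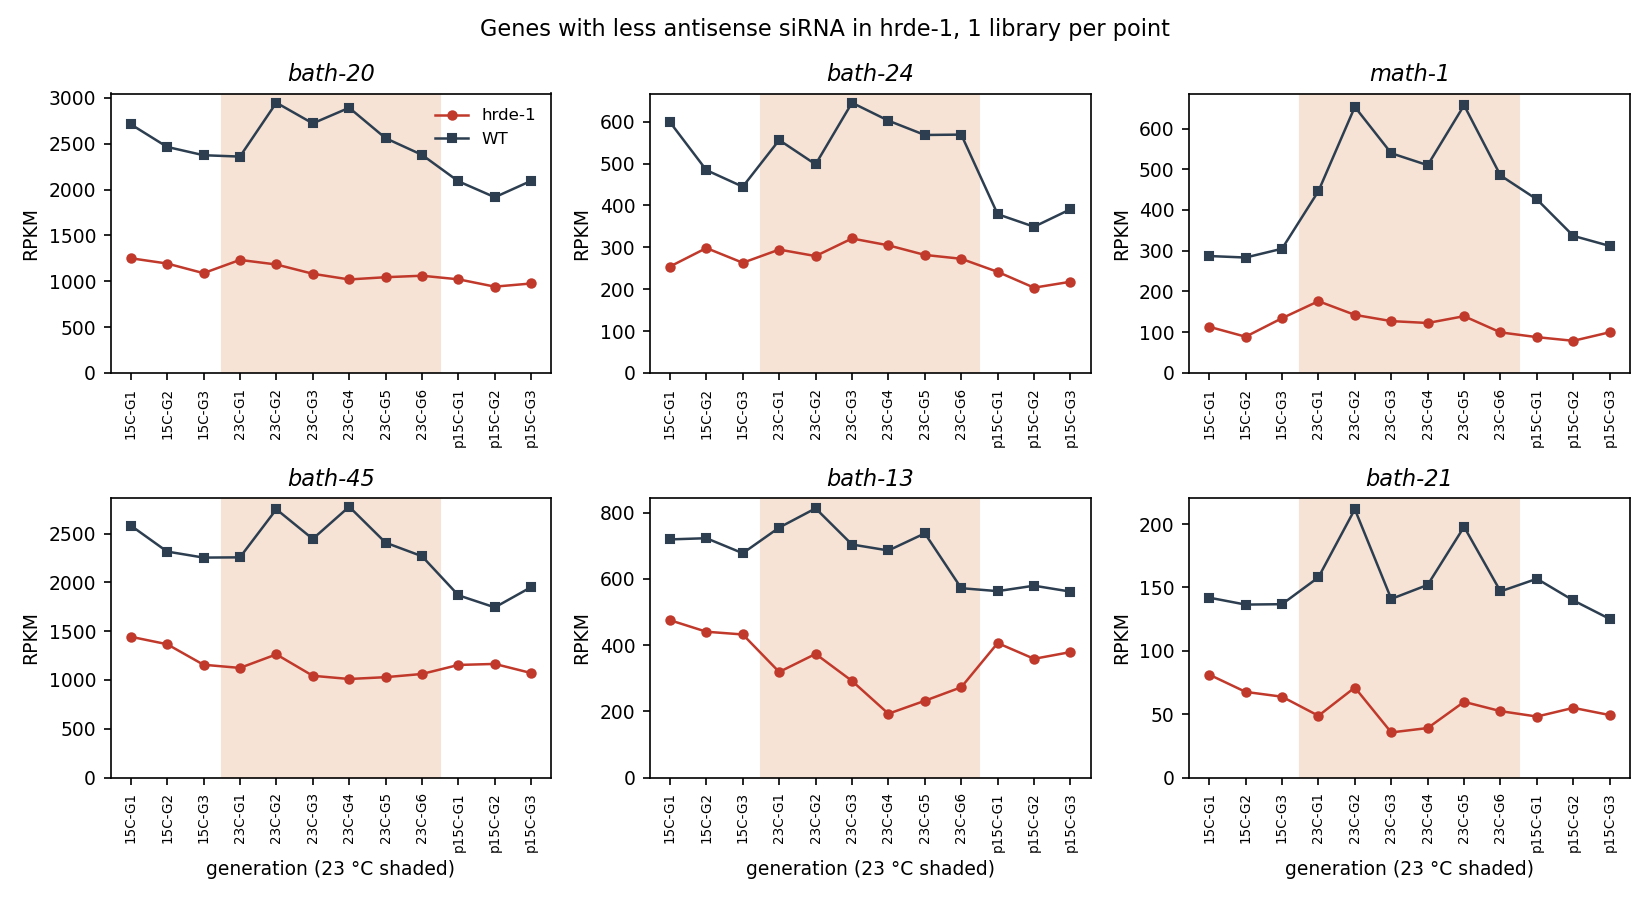
RPKM of bath-20, bath-24, math-1, bath-45, bath-13 and bath-21 (1 panel each) in the 12 generations in order, hrde-1 as red circles and WT as dark squares, 1 library per point, 23 °C shaded. The hrde-1 line stays under the WT line in every panel and generation; for bath-20 it ranges from 941 to 1251 RPKM and the WT line from 1916 to 2947 RPKM.

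The lower-level genes with calls in several phases included a pseudogene on the X chromosome, math-43. It had 13.7, 5.77 and 9.32 RPKM in hrde-1 in phase I, against 45.5, 50.4 and 45.5 RPKM in WT. The phase III values were 32.1, 17.7 and 9.28 RPKM in hrde-1, against 37.5, 56.0 and 28.4 RPKM in WT. The genotypes overlapped in phase III alone. Its difference was −2.25, −1.34, −1.11 and −1.59 (limma adjusted p = 6.52e-05, 0.0176, 0.0566 and 0.00312). The phase II call was lost without hrde-1 23C-G3 (−1.06, adjusted p = 0.129), and the phase III call without WT 23C-G4 (−1.14), WT 23C-G5 (−0.86), hrde-1 23C-G5 (−1.12) or hrde-1 23C-G6 (−0.69), with adjusted p from 0.118 to 0.392. The phase III call was also lost with a pseudocount of 10 RPKM (−0.81) and with the floor removed (−1.33, adjusted p just over the limit of 0.1).

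math-48 had 8.78, 12.97 and 9.79 RPKM in hrde-1 in phase I, against 28.8, 29.1 and 31.8 RPKM in WT. In phase III it had 4.36, 4.69 and 5.90 RPKM in hrde-1, against 16.4, 16.1 and 17.1 RPKM in WT. All phase III values were below all phase I values of the same genotype, a contrast that was not tested. The comparison of 23C-G2 to 23C-G6 with 15C-G1 to 15C-G3 described below did not call math-48 in either genotype. Its means there were 16.8 against 29.9 RPKM in WT and 5.64 against 10.5 RPKM in hrde-1. The hrde-1 libraries lay below the WT ones in each phase, with differences of −1.44, −1.28, −1.56 and −1.05 (adjusted p = 5.31e-05, 0.000279, 1.91e-05 and 0.00199). The phase IV value fell under the limit without WT p15C-G2 (−0.99) or hrde-1 p15C-G1 (−0.88), and all 4 calls were lost with a pseudocount of 10 RPKM, which is near the level of the gene. math-7, the most abundant gene of clone C16C4, had 7.27, 14.3 and 13.4 RPKM in hrde-1 in phase I, against 40.99, 26.2 and 42.8 RPKM in WT. The phase IV values were 15.8, 5.80 and 9.16 RPKM in hrde-1, against 33.2, 39.5 and 41.4 RPKM in WT. It was called at −1.60 and −1.89 in these 2 phases at 15 °C (adjusted p = 0.0201 and 0.00495). At 23 °C its libraries overlapped, with −0.13 and −0.68 in phases II and III.

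bath-34 and bath-35 are neighbours within 9.5 kb on chromosome I. bath-34 ranged from 6.73 to 31.4 RPKM in hrde-1 (median 16.9) and from 27.5 to 67.9 RPKM in WT (median 43.7). Its differences were −1.48, −1.58, −1.41 and −1.10, called in phases I to III (limma adjusted p = 0.0202, 0.0154 and 0.0316). Its calls were lost without hrde-1 15C-G3 in phase I (−1.05, adjusted p = 0.183) and without hrde-1 23C-G3 in phase II (−1.12, adjusted p = 0.141), and in phase III without any of WT 23C-G5, WT 23C-G6, hrde-1 23C-G4 or hrde-1 23C-G5 (−1.32 to −1.19, adjusted p from 0.106 to 0.159). bath-35 had 62.7, 47.8 and 48.5 RPKM in hrde-1 in phase I, against 89.4, 45.6 and 45.4 RPKM in WT, which overlap. In phase IV it had 23.5, 20.9 and 9.44 RPKM in hrde-1, against 76.9, 68.2 and 46.5 RPKM in WT, all lower. Its difference was −0.12 in phase I, −0.89 in phase II, −1.41 in phase III and −1.84 in phase IV (adjusted p = 0.0299 in III and 0.0028 in IV). The phase III call was lost without WT 23C-G4 (−1.23, adjusted p = 0.153) or hrde-1 23C-G6 (−0.78, adjusted p = 0.281).

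bath-10 was called in phase III alone, where it had 153.6, 153.4 and 140.6 RPKM in hrde-1, against 278.8, 310.1 and 324.1 RPKM in WT. The difference of −1.02 (adjusted p = 0.000951) read −0.97 without WT 23C-G6 and −0.98 without hrde-1 23C-G6. The remaining 5 genes called lower were MATH genes of 1.91 to 9.59 RPKM with a mean under 5 reads: math-8 (phases I, II and IV), math-39 (I and IV), math-2 and math-5 (I) and math-15 (IV). math-8 had 1.06, 1.98 and 1.31 RPKM in hrde-1 in phase I, against 3.34, 8.18 and 4.19 RPKM in WT. Its phase II values were 2.10, 1.85 and 1.85 RPKM in hrde-1, against 6.05, 5.10 and 8.06 RPKM in WT, and its phase IV values 2.09, 1.17 and 1.02 RPKM in hrde-1, against 3.10, 4.52 and 3.91 RPKM in WT. The hrde-1 libraries were the lower ones in these 3 phases and overlapped the WT ones in phase III. Its differences were −1.29, −1.32, −0.51 and −1.01 in phases I to IV (limma adjusted p = 0.00991, 0.0103, 0.556 and 0.0521). The libraries of math-5 overlapped between genotypes in phase I. 3 of the 5, math-5, math-8 and math-15, lie in clone C16C4.

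6 of the 8 calls of these 5 genes were lost when 1 library was left out. That of math-8 was lost in phase I without WT 15C-G2 (−0.97), and in phase IV without WT p15C-G2 (−0.91), WT p15C-G3 (−0.997), hrde-1 p15C-G2 (−0.94) or hrde-1 p15C-G3 (−0.89), under median-ratio scaling (−0.99) and with the floor removed (−1.53, adjusted p = 0.114). math-15 was lost in phase IV without WT p15C-G1 (−1.19), WT p15C-G2 (−1.07), WT p15C-G3 (−1.08), hrde-1 p15C-G1 (−1.07) or hrde-1 p15C-G2 (−0.94), with adjusted p from 0.101 to 0.236. math-5 was lost in phase I without WT 15C-G1 (−0.90), WT 15C-G3 (−0.77), hrde-1 15C-G1 (−0.76) or hrde-1 15C-G2 (−1.02), and in the fit on the compared groups alone (adjusted p = 0.204). In phase I, math-39 was lost without WT 15C-G1 (−0.89, adjusted p = 0.121) and math-2 without WT 15C-G1 (−0.90). The phase I calls of math-5 (−1.25, limma adjusted p = 0.396) and math-2 (−1.43, adjusted p = 0.123) were also lost with the floor removed. With a pseudocount of 10 RPKM all calls of the 5 were lost.

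**Figure D4:**
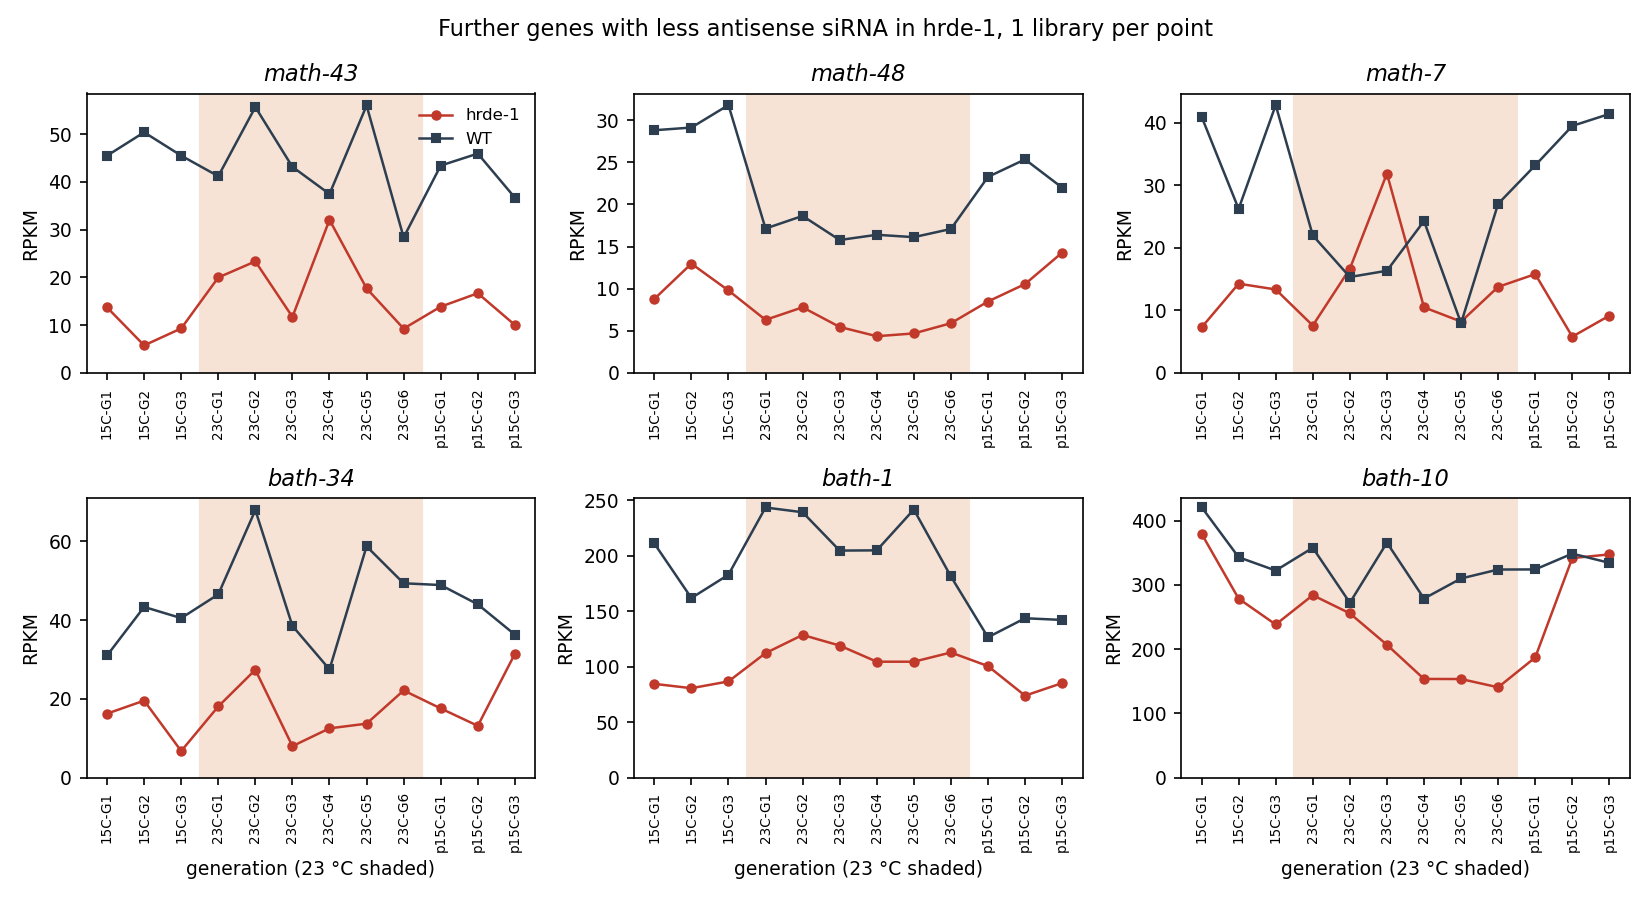
RPKM of math-43, math-48, math-7, bath-34, bath-1 and bath-10 (1 panel each) in the 12 generations in order, hrde-1 as red circles and WT as dark squares, 1 library per point, 23 °C shaded. math-7 separates the genotypes at 15 °C and overlaps at 23 °C; bath-10 separates them at 23C-G4 to 23C-G6, at 140.6 to 153.6 RPKM in hrde-1 and 278.8 to 324.1 RPKM in WT.

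The 3 genes with more siRNA in hrde-1 were called in 1 or 2 phases each. math-31, a gene of 344 exonic bases in clone F52C6, had 198.1, 209.7 and 199.7 RPKM in hrde-1 in phase I, against 56.3, 68.1 and 32.7 RPKM in WT. The difference of 1.99 ± 0.25 (limma adjusted p = 3.04e-06) was the largest rise among the 85 genes in phase I. In phases II to IV it was 0.44, 0.26 and 0.50, with overlapping libraries. bath-36 on chromosome V had 46.8, 36.2 and 47.3 RPKM in hrde-1 in phase I, against 11.7, 12.6 and 18.1 RPKM in WT. The phase IV values were 26.6, 21.97 and 26.8 RPKM in hrde-1, against 9.89, 14.01 and 12.3 RPKM in WT. The hrde-1 libraries were above the WT ones in both phases at 15 °C, by 1.57 in phase I (adjusted p = 9.81e-05) and 1.01 in phase IV (adjusted p = 0.00967), and overlapped them at 23 °C. The phase IV value was under the limit without WT p15C-G1 (0.88), hrde-1 p15C-G1 (0.96) or hrde-1 p15C-G3 (0.96). bath-38 had 21.6, 15.2 and 12.8 RPKM in hrde-1 in phase III, against 5.00, 8.19 and 4.06 RPKM in WT, a difference of 1.39 (adjusted p = 0.00754) that was lost with a pseudocount of 10 RPKM.

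Many abundant genes of the family were not called between the genotypes. bath-23 ranged from 395.5 to 761.8 RPKM in hrde-1 and from 407.9 to 657.6 RPKM in WT, with differences of −0.16, 0.20, 0.38 and −0.02. bath-7 ranged from 215.2 to 297.5 RPKM in hrde-1 and from 285.7 to 376.6 RPKM in WT, with differences of −0.47, −0.36, −0.24 and −0.37. Its hrde-1 libraries lay below the WT ones in phase I (240.3 to 272.3 against 331.5 to 376.6 RPKM) and phase IV (247.8 to 256.55 against 323.0 to 327.4 RPKM). math-33 differed by 0.38, 0.27, −0.05 and −0.01, at 23.0 to 38.0 RPKM in hrde-1 and 23.6 to 38.8 RPKM in WT. Called and uncalled genes lay side by side. Next to bath-21 and bath-1 in clone F59H6, bath-3 ranged from 12.5 to 28.5 RPKM in hrde-1 and from 16.2 to 36.7 RPKM in WT, and bath-5 from 43.3 to 78.6 RPKM in hrde-1 and from 43.6 to 92.1 RPKM in WT. bath-19, between these and bath-20, ranged from 14.4 to 43.7 RPKM in hrde-1 and from 19.3 to 63.3 RPKM in WT. None of these 3 was called in any phase, and their libraries overlapped between genotypes in phases II and III.

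In the run of 7 BATH genes on chromosome II, 1 gene was called between the genotypes, bath-10 in phase III. bath-28 had a median of 45.6 RPKM in hrde-1 and 50.3 RPKM in WT, bath-30 one of 48.7 RPKM in hrde-1 and 42.7 RPKM in WT, and bath-29 one of 86.03 RPKM in hrde-1 and 79.7 RPKM in WT. bath-27 differed by −0.31, −0.54, −0.31 and −0.40 in phases I to IV. bath-9 had 11.1, 12.4 and 10.5 RPKM in hrde-1 in phase I, against 21.9, 18.1 and 18.8 RPKM in WT. These libraries did not overlap, and the difference of −0.74 was not called (adjusted p = 0.23). In phases II to IV bath-9 differed by −0.31, −0.60 and −0.06, with overlap. In all, 55 of the 85 genes were called in none of the 10 comparisons made here.

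The partners of these proteins were counted in the same way. Over all genes, 7.82%, 5.7%, 5.85% and 7.99% were called in phases I to IV. A list drawn up around CUL-3 had 23 measured genes. It held cul-3, rbx-1, mel-26, kel-8, trf-1, ppfr-1, mei-1, mei-2 and uba-1, with neddylation, ubq and csn genes. Of these 23, 1 was lower in each phase and 1 was higher in phase II. These calls are 4.35%, 8.7%, 4.35% and 4.35% of the list in phases I to IV. The lower one was kel-8, for a kelch-type CUL-3 adaptor, at means of 4.33 RPKM in hrde-1 and 21.7 RPKM in WT in phase I and a difference of −2.03 to −2.93 over the phases, and the higher one was dcn-1. cul-3 differed by −0.14, 0.54, 0.19 and 0.14 and mel-26 by −0.11, −0.41, −0.51 and −0.47, none called. Among 21 BTB-only genes, 2, 2, 1 and 5 were lower in phases I to IV (9.52%, 9.52%, 4.76% and 23.8%). None was higher, and btb-12 was lower in all 4 phases. Among 305 F-box genes, which encode adaptors of the other main cullin ligase, 62, 31, 34 and 68 were lower and 3, 3, 8 and 2 higher. Both directions together make 21.3%, 11.1%, 13.8% and 23% of the F-box genes. The calls of the F-box family and of the MATH and BATH family thus lay mainly in 1 direction, whereas over all genes the higher and lower calls were closer in number.

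The second comparison asked which siRNAs changed with temperature, in 23C-G2 to 23C-G6 against 15C-G1 to 15C-G3, leaving out 23C-G1, the generation shifted as embryos. In hrde-1, 2 of the 85 genes were higher and 1 lower at 23 °C (3.71% and 2.7% of all genes), and in WT 3 were higher and 2 lower (3.94% and 2.64%). The difference between the genotypes' responses, hrde-1 minus WT, passed the test above 0 for 2 genes (1.11%) and below 0 for 2 (1.41%). These shares are near those over all genes. In hrde-1, all 5 libraries at 23 °C lay above all 3 at 15 °C for 24 genes (34.4% of all genes) and below them for 6 (5.89%), and in WT this held for 4 (6.34%) and 7 (5.36%). The hrde-1 libraries of 15C-G1 to 15C-G3 were the deeper ones, so the floor moved with this comparison too, and its part was not tested.

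math-31 changed most in WT. In WT it had 238.7 to 371.5 RPKM at 23 °C (median 315.0, 5 libraries), against 56.3, 68.1 and 32.7 RPKM at the first 15 °C, a rise of 2.58 ± 0.22 on the log2 scale (limma adjusted p = 1.23e-07). WT 23C-G1 already stood at 171.2 RPKM. In hrde-1 it had 272.9 to 444.5 RPKM at 23 °C (median 337.2), against 198.1, 209.7 and 199.7 RPKM at the first 15 °C, a difference of 0.79 that was not called although the libraries did not overlap. The genotypes overlapped at 23 °C and lay apart at the first 15 °C, and the responses differed by −1.79 ± 0.31, hrde-1 minus WT (adjusted p = 0.00216).

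math-44 changed in hrde-1. There it had 156.6 to 201.5 RPKM at 23 °C (median 173.9), against 74.1, 60.1 and 97.2 RPKM at the first 15 °C, a rise of 1.22 ± 0.21 (limma adjusted p = 0.000493). In WT it had 105.2 to 195.9 RPKM at 23 °C (median 146.8), against 159.9, 122.5 and 143.3 RPKM, which overlap, although WT 23C-G1 reached 280.1 RPKM. The responses differed by 1.17 ± 0.30 (adjusted p = 0.0424), and this was lost without WT 15C-G1 (1.07, adjusted p = 0.108) or hrde-1 15C-G2 (1.00, adjusted p = 0.142).

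math-9 of clone C16C4, which averaged 4.7 reads and so lies just under the 5 that mark genes clear of the floor, was called higher in both genotypes. In hrde-1 it had 16.6, 18.1, 28.6, 35 and 44.01 RPKM at 23C-G2 to 23C-G6, against 2.91, 4.31 and 2.51 RPKM at the first 15 °C. In WT it had 15.8, 15.7, 17.3, 19.3 and 12.1 RPKM at 23C-G2 to 23C-G6, against 3.86, 12.2 and 3.58 RPKM. The hrde-1 values were higher in each later generation at 23 °C and returned to 13.7, 4.81 and 1.95 RPKM at p15C, whereas the WT values showed no such order. The rise was 2.73 ± 0.43 in hrde-1 (limma adjusted p = 0.000226) and 1.34 in WT (adjusted p = 0.0594), and the difference of 1.39 between them was not called. In phase III the hrde-1 libraries of math-9 lay above the WT ones, a difference of 1.101 on the log2 scale that was not called (adjusted p = 0.186). The WT call was lost without WT 15C-G1 (1.11), WT 15C-G3 (1.07), WT 23C-G4 (1.31) or WT 23C-G5 (1.27), with adjusted p from 0.102 to 0.277.

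bath-31 was the abundant gene that fell at 23 °C. In WT it had 134.1 to 232.3 RPKM at 23 °C (median 149.4), against 659.9, 457.9 and 473.1 RPKM at the first 15 °C, a difference of −1.63 ± 0.20 (limma adjusted p = 1.17e-05). In hrde-1 it had 180.1 to 207.2 RPKM at 23 °C (median 200.6), against 496.1, 368.3 and 237.0 RPKM, also with no overlap, and its −0.85 was not called. At p15C bath-31 stood at 270.5, 331.4 and 214.7 RPKM in hrde-1 and 349.6, 387.0 and 338.4 RPKM in WT. bath-9 also fell in WT at 23 °C, by 1.18 on the log2 scale (adjusted p = 0.0155), with 5.03 to 11.8 RPKM at 23 °C against 18.1 to 21.9 RPKM at 15 °C. bath-39 rose in WT by 1.32 (adjusted p = 0.0436), with 5.29 to 12.8 RPKM at 23 °C against 4.73, 4.29 and 1.65 RPKM at the first 15 °C. The bath-39 call was lost without WT 15C-G3 (0.96, adjusted p = 0.276) and with the floor removed (1.78, adjusted p = 0.112). With a pseudocount of 10 RPKM the calls of both bath-39 (0.56) and bath-9 (−0.695) were lost.

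bath-35 fell in hrde-1, to 7.09 to 32.4 RPKM at 23 °C (median 25.4), against 62.7, 47.8 and 48.5 RPKM at the first 15 °C, by 1.39 on the log2 scale (adjusted p = 0.0167). In WT it had 41.8 to 64.6 RPKM at 23 °C (median 47.4), against 89.4, 45.6 and 45.4 RPKM, a difference of −0.21. The difference of −1.18 between the responses was not called. bath-36 had differences of opposite sign, −0.58 in hrde-1 and 0.57 in WT, neither of which was called alone. Its interaction of −1.15 (adjusted p = 0.0621) was lost without any of 8 of the 16 libraries compared, as the closing section lists. The fit on the compared groups alone also lost this interaction (adjusted p = 0.112), as did a pseudocount of 10 RPKM (−0.84). The interaction of math-2, 1.14 (adjusted p = 0.083), rests on levels of 0.89 to 5.44 RPKM, near 1 read. It was lost in 11 of the 16 fits that left out 1 library (0.90 to 1.23, adjusted p from 0.108 to 0.219, also listed in the closing section), with the generation as a block (adjusted p = 0.104), in the fit on the compared groups alone (adjusted p = 0.171) and with the floor removed (1.38, adjusted p = 0.535).

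**Figure D5:**
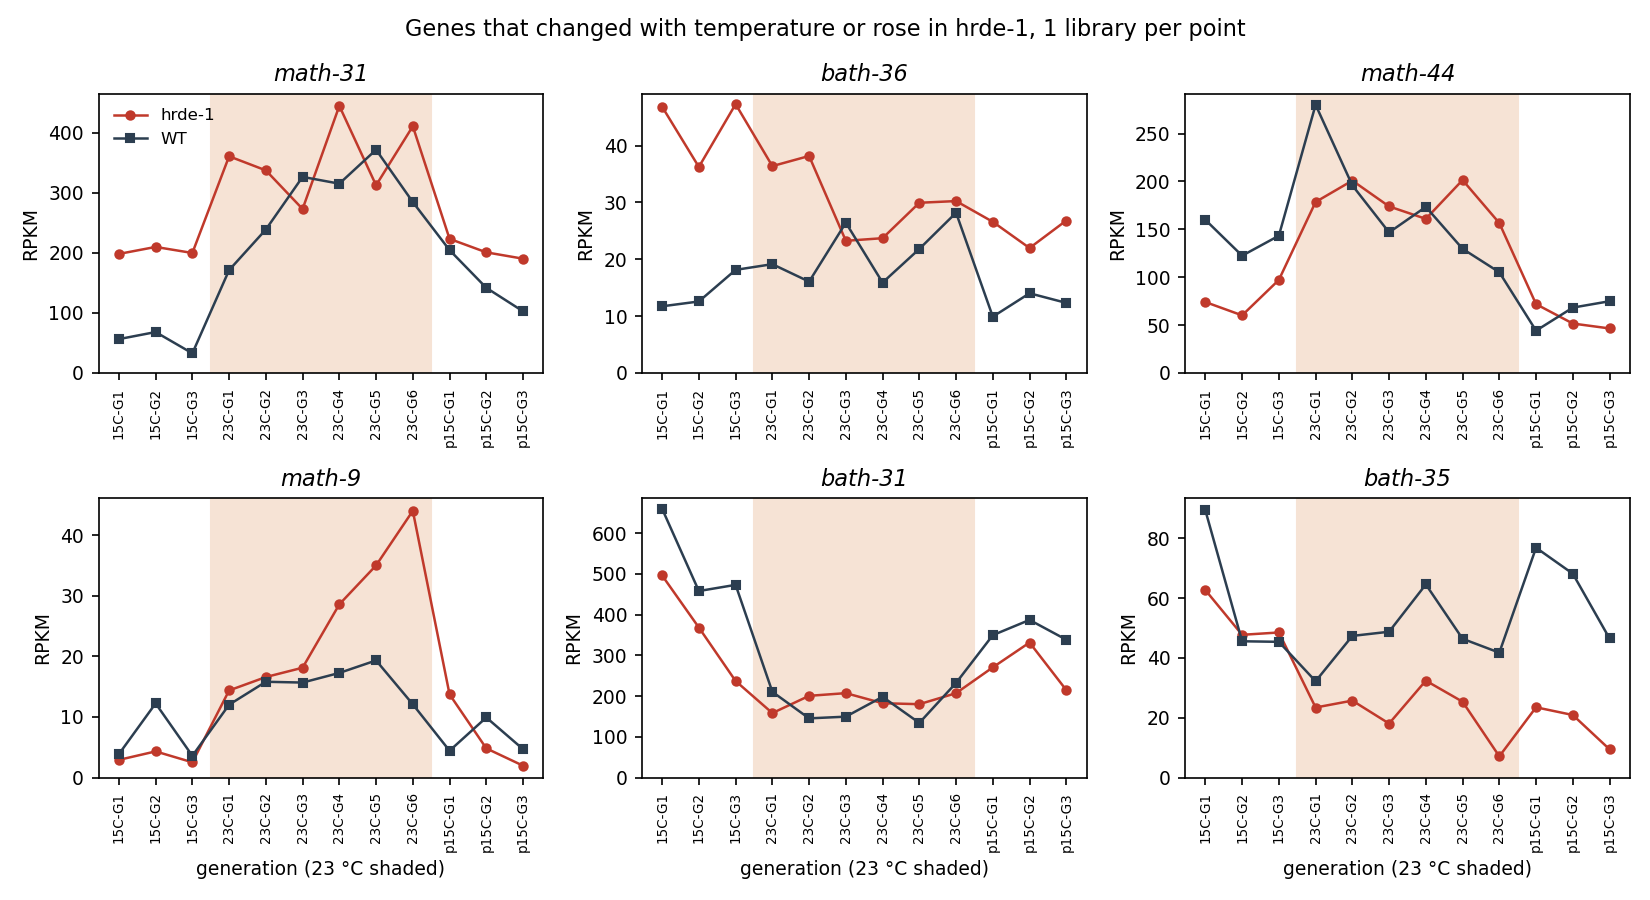
RPKM of math-31, bath-36, math-44, math-9, bath-31 and bath-35 (1 panel each) in the 12 generations in order, hrde-1 as red circles and WT as dark squares, 1 library per point, 23 °C shaded. math-31 in WT climbs above 238 RPKM in 23C-G2 to 23C-G6 and is under 69 RPKM before; math-9 in hrde-1 reaches 44.01 RPKM in 23C-G6; bath-35 in hrde-1 stays under 24 RPKM at p15C.

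The third comparison asked what remained after the return to 15 °C, in p15C-G1 to p15C-G3 against 15C-G1 to 15C-G3. In hrde-1, none of the 85 genes was higher and 1 was lower (1.19% and 0.635% of all genes), and the libraries at p15C lay above those before heat for 1 gene and below them for 12 (6.51% and 5.63%). The gene called was bath-35. Its 23.5, 20.9 and 9.44 RPKM at p15C, against 62.7, 47.8 and 48.5 RPKM before heat, gave −1.59 ± 0.41 (limma adjusted p = 0.0446). The call was lost without hrde-1 15C-G1 (−1.47), hrde-1 15C-G2 (−1.66) or hrde-1 p15C-G3 (−1.21), with adjusted p from 0.105 to 0.262. With the read floor removed the difference was −1.67 and its adjusted p was 0.134. The difference between the genotypes, −1.72, was not called for bath-35.

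In WT, 1 gene was higher and 8 were lower at p15C (2.45% and 1.13% of all genes), and the libraries lay above those before heat for 8 genes and below them for 29 (10.9% and 31.6%). The higher one was math-31, at 204.5, 141.7 and 102.6 RPKM at p15C, against 56.3, 68.1 and 32.7 RPKM before heat, a rise of 1.503 ± 0.24 (limma adjusted p = 0.00302). In hrde-1 math-31 had 223.2, 200.7 and 190.2 RPKM at p15C, against 198.1, 209.7 and 199.7 RPKM, a difference of 0.01. The responses differed by −1.49 ± 0.35 (adjusted p = 0.0426), where 0.428% of all genes were called below 0 and 0.625% above. The call was lost without WT 15C-G3 (−1.19), WT p15C-G1 (−1.24) or hrde-1 15C-G2 (−1.46), with adjusted p from 0.10 to 0.129.

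math-44 was lower at p15C in WT, at 44.2, 68.2 and 74.9 RPKM, against 159.9, 122.5 and 143.3 RPKM before heat, a difference of −1.20 (limma adjusted p = 0.0114), which read −0.97 without WT p15C-G1. In hrde-1 it had 71.8, 51.6 and 46.5 RPKM at p15C, against 74.1, 60.1 and 97.2 RPKM, which overlap. bath-9 differed by −1.02 in WT (adjusted p = 0.0881), a call that was lost when any of the 6 libraries compared was left out: without WT 15C-G1 (−0.94), WT 15C-G2 (−1.08), WT 15C-G3 (−1.05), WT p15C-G1 (−0.84), WT p15C-G2 (−1.35) or WT p15C-G3 (−0.88), with adjusted p from 0.101 to 0.203. The other 6 genes called lower were math-2, math-5, math-6, math-13, math-17 and math-34, all with a mean under 5 reads. The call of math-5 was kept with each library left out. That of math-6 was lost without any of the 6 libraries (−1.40 to −0.86), that of math-13 without WT 15C-G2 (−1.22) or WT p15C-G2 (−1.16), and that of math-34 without WT 15C-G1 (−1.24) or WT p15C-G3 (−1.39). math-17 was lost without WT 15C-G2 (−0.93), WT 15C-G3 (−0.81), WT p15C-G2 (−1.06) or WT p15C-G3 (−0.95), and math-2 without WT 15C-G1 (−0.83), WT 15C-G3 (−0.98), WT p15C-G2 (−1.12) or WT p15C-G3 (−1.03). The WT libraries were deeper at p15C (584100 to 1042400 reads) than before heat (369500 to 502500), which lowers the floor. Once the floor was removed the count in WT was 3 in place of 9. The 7 genes then lost, these 6 and bath-9, had differences of −1.96 to −1.09 with adjusted p from 0.16 to 0.394. Taking off about 1 read lowers small values the most on the log2 scale, so the size of these differences cannot show the part of the floor. That part was not tested.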

How the data were processed

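Small RNAs of whole young adults were cloned by a method that does not depend on the 5′ phosphate. The deposited file holds 1 RPKM table, which the authors made by aligning reads with Bowtie 0.12.7 to the WS190 mRNA database, keeping perfect antisense alignments and dividing by exon length and total reads. The sources used here do not give how reads matching several genes were treated, so values of near-identical family members are uncertain. RPKM are not counts, so log2(RPKM + 1) was fitted with limma 3.58.1 (R 4.3.3) over the 19839 of 20167 genes that averaged 1 RPKM or more, in all 24 libraries. The phase model has a mean for each genotype and phase, and the temperature model keeps 23C-G1 apart. Calls need a 2-fold difference and an adjusted p (Benjamini-Hochberg) no higher than 0.1. SE are on the log2(RPKM + 1) scale, which understates changes of low genes. Depth was inferred from the steps between low values, of which 76.9% lay within 0.1 of a whole read using WBcel235 lengths. The fit was tested on simulated data. Tables were handled with Python 3.11.15 (pandas 2.3.3) and drawn with matplotlib 3.10.9. The members and lists were chosen with earlier results of these data known. Any called gene may be named. Values are given for up to 10 called genes of at least 10 RPKM per comparison and direction (those with the largest changes), for genes called in the same direction in at least 3 phases, for the 8 highest genes, and for math-33 and mel-26. Outside this rule, some values are also given for called genes under 10 RPKM, such as bath-9, bath-39 and math-2. bath-15, kel-8, dcn-1 and btb-12 and the uncalled neighbours of called genes were named after their values were seen. Alternatives were a pseudocount of 10 RPKM, other filters, median-ratio scaling, the read floor taken off, fits on the compared groups, the generation as a block and each library left out.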

Additional observations from a re-analysis of the deposited data

Results flagged for a closer look

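In the groups of 5 libraries at 23C-G2 to 23C-G6, 1 library stood apart from the other 4 by Dixon's criterion in 5 of 66 groups examined, where chance marks about 1 in 20. bath-45 was at 1262 RPKM in hrde-1 23C-G2, with the other 4 hrde-1 libraries at 1010 to 1061 RPKM. The other 4 were low MATH genes in hrde-1: math-13 at 6.64 RPKM in 23C-G2 (others 2.73 to 3.48 RPKM), math-2 at 3.76 RPKM in 23C-G2 (1.54 to 1.97 RPKM), math-39 at 5.87 RPKM in 23C-G6 (2.33 to 2.98 RPKM) and math-6 at 12.77 RPKM in 23C-G5 (6.11 to 7.76 RPKM).

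The response to 23 °C differed between hrde-1 and WT by limma's interaction term for 4 genes, hrde-1 minus WT on the log2 scale: math-31 by −1.79 (SE 0.31, adjusted p = 0.00216), math-44 by 1.17 (SE 0.30, adjusted p = 0.0424), bath-36 by −1.15 (SE 0.31, adjusted p = 0.0621) and math-2 by 1.14 (SE 0.33, adjusted p = 0.083). The change at p15C differed for math-31, by −1.49 (SE 0.35, adjusted p = 0.0426). The bath-36 interaction was lost when any of WT 15C-G1, WT 15C-G2, WT 23C-G3, WT 23C-G5, hrde-1 15C-G1, hrde-1 15C-G3, hrde-1 23C-G3 or hrde-1 23C-G4 was left out (−1.13 to −1.03, adjusted p from 0.101 to 0.168). The math-2 interaction was lost without any of WT 15C-G1, WT 15C-G3, WT 23C-G2, WT 23C-G3, WT 23C-G5, hrde-1 15C-G1, hrde-1 15C-G2, hrde-1 15C-G3, hrde-1 23C-G2, hrde-1 23C-G4 or hrde-1 23C-G6 (0.90 to 1.23, adjusted p from 0.108 to 0.219), and with the generation as a replicate block (adjusted p = 0.104).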

How the results depend on the processing

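Of 68 calls of single genes, 30 were kept in every alternative that tested the gene and with every library left out. Among them were all calls of bath-20, math-1, bath-13, bath-45 and bath-21, and no call changed direction. The filters of 10 RPKM and of 5 reads left out some genes, so 50 and 51 of the 68 calls were run there. With a pseudocount of 10 RPKM the number of genes called moved from 13 to 8 in phase I, from 12 to 7 in phase III and from 11 to 6 in phase IV, from 5 to 2 for 23 °C in WT, from 4 to 2 for the 23 °C interaction and from 9 to 2 for p15C in WT. The p15C count in WT was also 2 among genes averaging 10 RPKM or more and 2 among genes averaging 5 reads or more, a filter chosen after seeing the data. With the read floor taken off the counts were 3 for p15C in WT, 5 in place of 3 for 23 °C in hrde-1, 0 in place of 1 for p15C in hrde-1 and 2 in place of 1 for the p15C interaction. Fitting only the groups compared gave 2 for the 23 °C interaction. Under median-ratio scaling the median of all genes at p15C in WT moved to −0.23 from −0.13, and 361 genes were higher and 344 lower in place of 487 and 224. With each library left out in turn, the counts ranged from 11 to 17 in phase I, 7 to 11 in II, 8 to 11 in III, 8 to 10 in IV, 3 to 5 for 23 °C in hrde-1, 3 to 8 in WT and 1 to 5 for the interaction, 0 to 1 for p15C in hrde-1, 4 to 6 in WT and 0 to 2 for the interaction. For 23 °C in hrde-1 the count was 5 without hrde-1 15C-G2, 15C-G3 or 23C-G4, and in WT 3 without WT 15C-G3 and 8 without WT 23C-G6. For the 23 °C interaction it was 1 without WT 15C-G1 and 2 without WT 23C-G5, hrde-1 15C-G3 or hrde-1 23C-G4. For p15C in WT it was 5 without WT 15C-G1 or 15C-G2 and 4 without WT p15C-G2 or p15C-G3, in hrde-1 0 without 15C-G1, 15C-G2 or p15C-G3, and for the p15C interaction 2 without WT 15C-G2 and 0 without WT 15C-G3, WT p15C-G1 or hrde-1 15C-G2. The causes were not tested.

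With the generation as a replicate block, 2 genes in place of 1 were called for the p15C interaction and 3 in place of 4 for the 23 °C interaction, where math-2 was lost (1.14, adjusted p = 0.104). The counts in phases I to IV were 13, 9, 12 and 13, in place of 13, 9, 12 and 11. Deviations of same-numbered libraries correlated at −0.016 to 0.367. They were above 0.1 in 10 of 12 pairs, whereas a pairing was accepted only if all were. Among the 3 libraries of the other genotype in the same phase, 19 of 24 libraries correlated best with their own number. By phase these were 4, 6, 3 and 6 of 6 libraries in phases I to IV. The labels state no shared generation effect, and whether there was one was not tested.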
